A study of Homo sapiens
Mus musculus and Mus musculus and Homo sapiens with 16 samples.

Results

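MS-5, a stromal cell line derived from mouse bone marrow, was measured with and without REC-1, a human mantle cell lymphoma (MCL) cell line. The mouse gene counts of the 4 libraries of the adherent fraction (Adh), which hold MS-5 and the REC-1 cells bound to it, were set against those of the 4 libraries of monocultured MS-5. These were 8 of the 16 libraries of the series, chosen by their labels, and all 49671 mouse genes of the count table were considered. In the coculture, MS-5 had been seeded 24 h earlier and REC-1 cells were added in excess, and RNA was taken after 24 h together. Both groups grew in the same serum-containing medium, and the labels give no drug treatment and no genetic change for them. The study describes its fractions of lymphoma cells, the adherent one included, as coming from independent experiments. For monocultured MS-5 neither it nor the labels, which number the replicates of each group from 1 to 4, say whether the libraries came from separate cultures, and p-values measure the spread between these libraries. The other 8 libraries hold monocultured REC-1 (Sep) and the suspension fraction of the coculture (Susp) and were not used in this comparison. MS-5 is 1 established line, so the values describe that line and not the mixture of stromal cells in marrow.

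Bone marrow stroma feeds, holds and positions blood cells. It does so through chemokines such as Cxcl12, growth factors such as Kitl (stem cell factor) and Csf1, adhesion molecules such as Vcam1, and a matrix of collagens and glycoproteins. Stromal cells also secrete inflammatory mediators, among them prostaglandins made by Ptgs2 (COX-2) and the chemokines Ccl2 and Cxcl1. Their redox balance is set largely by the transcription factor NRF2 (gene Nfe2l2), which drives genes of glutathione and thioredoxin synthesis and the heme oxygenase Hmox1, and their supply of serine and asparagine by the transcription factor ATF4.

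More genes were called lower than higher in MS-5 with bound REC-1, 20 against 5 in edgeR and 18 against 11 in DESeq2. The proliferins Prl2c2 and Prl2c3 stood at 42.1% and 43.7% of their level in MS-5 alone, Ptgs2 at 46.97% and Hmox1 at 55.6%. The chemokines Cxcl5, Cxcl1 and Ccl2 were also called lower. Cxcl12 was higher but not called, with overlapping groups (log2 fold change 0.46, edgeR adjusted p = 0.0486). Most of the genes that define stroma, bind lymphocytes or support blood cells did not pass the test, with intervals that were narrow for the well counted ones.

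Mouse fragments numbered 10097555 to 17397651 per library in MS-5 alone and 29495404 to 34615602 in coculture, so every coculture library was deeper than every library of MS-5 alone. Human fragments made up 18.3% to 28.2% of the fragments in the Adh libraries. Levels are given as CPM, the usual scale on which a gene's counts are divided by the library size, here the mouse library size adjusted by TMM (trimmed mean of M values). In bulk RNA, fewer cells of a type and less RNA per cell cannot be told apart. Mitochondrial transcripts made up 0.293% to 0.576% of mouse counts alone and 0.157% to 0.361% in coculture, and ribosomal protein genes 4.23% to 4.48% and 4.29% to 4.61%. Correlations of log2 CPM were 0.985 to 0.990 between libraries of MS-5 alone, 0.991 to 0.993 within coculture and 0.985 to 0.992 between the groups. The first principal component separated replicate 2 of MS-5 alone from the other 7 libraries and not the groups.

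The labelled cell type was checked against its markers. Of 15 stroma markers 13 were counted well enough for a test, with summed levels of 10809 to 11551 CPM alone and 10632 to 12199 CPM in coculture, and none passed it (median log2 fold change 0.01; 4 at an unadjusted p under 0.05 in edgeR, 1 past the adjusted limit in DESeq2). The intermediate filament gene Vim was at 5036 ± 204 CPM alone and 4941 ± 336 CPM in coculture (SD, n = 4), and Col1a1, a chain of type I collagen, at 1313 ± 145 CPM alone and 1325 ± 188 CPM in coculture. Thy1 and Nt5e, surface markers often used for stromal cells, were absent from the test, Thy1 with no count in any library and Nt5e with 2 counts at most. Of 15 B cell markers, 9 including Pax5, Ighm and Btk had no mouse count in any of the 8 libraries, none had more than 15 counts and their summed level was at most 0.752 CPM. In the same Adh libraries the human counts of these 15 genes were 472 to 55689. None of the 7 endothelial markers was tested, and 4 of the 10 macrophage markers were, at summed levels of 5.58 to 6.77 CPM alone and 6.08 to 8.29 CPM in coculture for the list, with Adgre1 among the 5 at 0. None of these 4 passed in edgeR or DESeq2, and 1 had an unadjusted p under 0.05. Where a count is 0, the limit that 3 counts set is 0.173 to 0.298 CPM in MS-5 alone and 0.0862 to 0.102 CPM in coculture.

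Of the 49671 mouse genes, 12201 had enough counts for the test. In edgeR's quasi-likelihood test, 25 of them (0.205%) had an adjusted p ≤ 0.05 together with a 1.5-fold or larger change, which is what "called" means here. Of these, 5 (0.041%) were higher and 20 (0.164%) lower in coculture. Without the minimum on fold change, 94 genes (0.77%) passed, 24 higher (0.197%) and 70 lower (0.574%). A gene is said to rise or fall only if it was among these 94. With the replicate number added to the edgeR fit as a block, 45 genes were called and 435 passed. Statements that genes did not pass in edgeR hold for the fit without the block. The gene lists used below were chosen with earlier results of these data known. Counts of their members are set beside shares of all tested genes as a description and not as a test. The median log2 fold change over all tested genes was -0.0017. At an unadjusted p under 0.05 there were 1374 genes (11.3%), 630 higher (5.16%) and 744 lower (6.1%). For 822 genes (6.74%) the libraries of the groups did not overlap, 373 (3.06%) higher and 449 (3.68%) lower in coculture. Where a gene passed the test on these same libraries, such separation adds no support. The number of calls rested on single libraries. It was 13 without replicate 2 of MS-5 alone, 8 without replicate 3, 11 without replicate 4 and 13 without replicate 3 of the coculture, whereas it was between 20 and 36 without any other library. With every library thinned to the smallest total it was 22, of which 20 were among the 25, and with the mitochondrial genes removed all 25 calls were kept. The calls lost on thinning were those of Igf2bp1 (edgeR adjusted p = 0.0501), Prl2c5 (0.177), RP24-250L13.2 (0.0997), Krt13 (on its log2 fold change of 0.58) and Lce1g, which was then too low for the test. Of all tested genes, 50.4% had a fold change below 0.

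**Figure D1:**
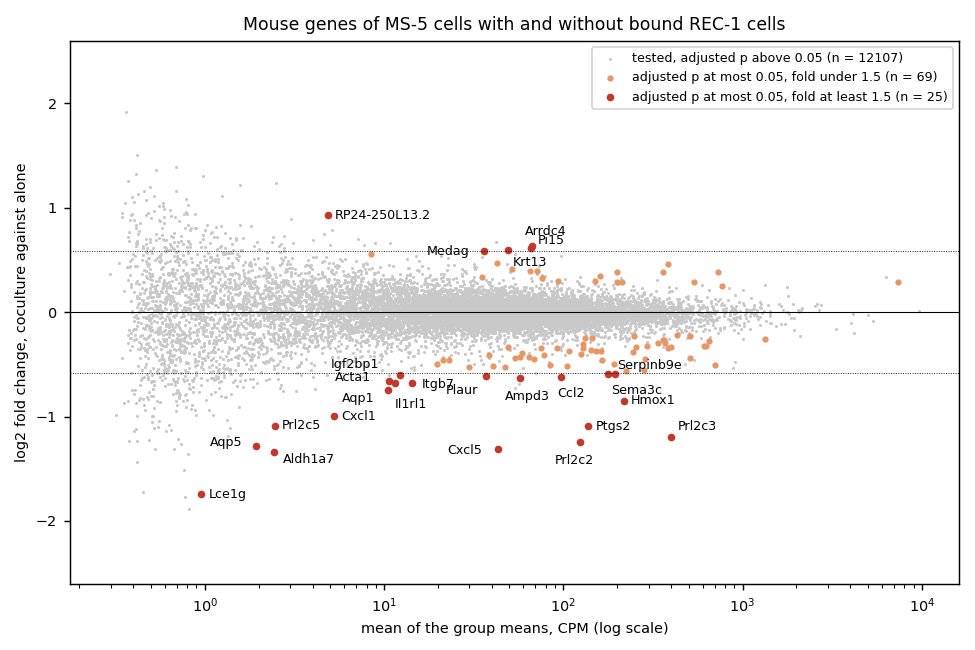
Log2 fold change of MS-5 in coculture against MS-5 alone (vertical) against the mean of the group means in CPM (horizontal, log scale) for the 12201 tested genes. Dotted lines mark a fold change of 1.5. The 25 called genes are named, 20 below the lower line and 5 above the upper one.

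**Figure D2:**
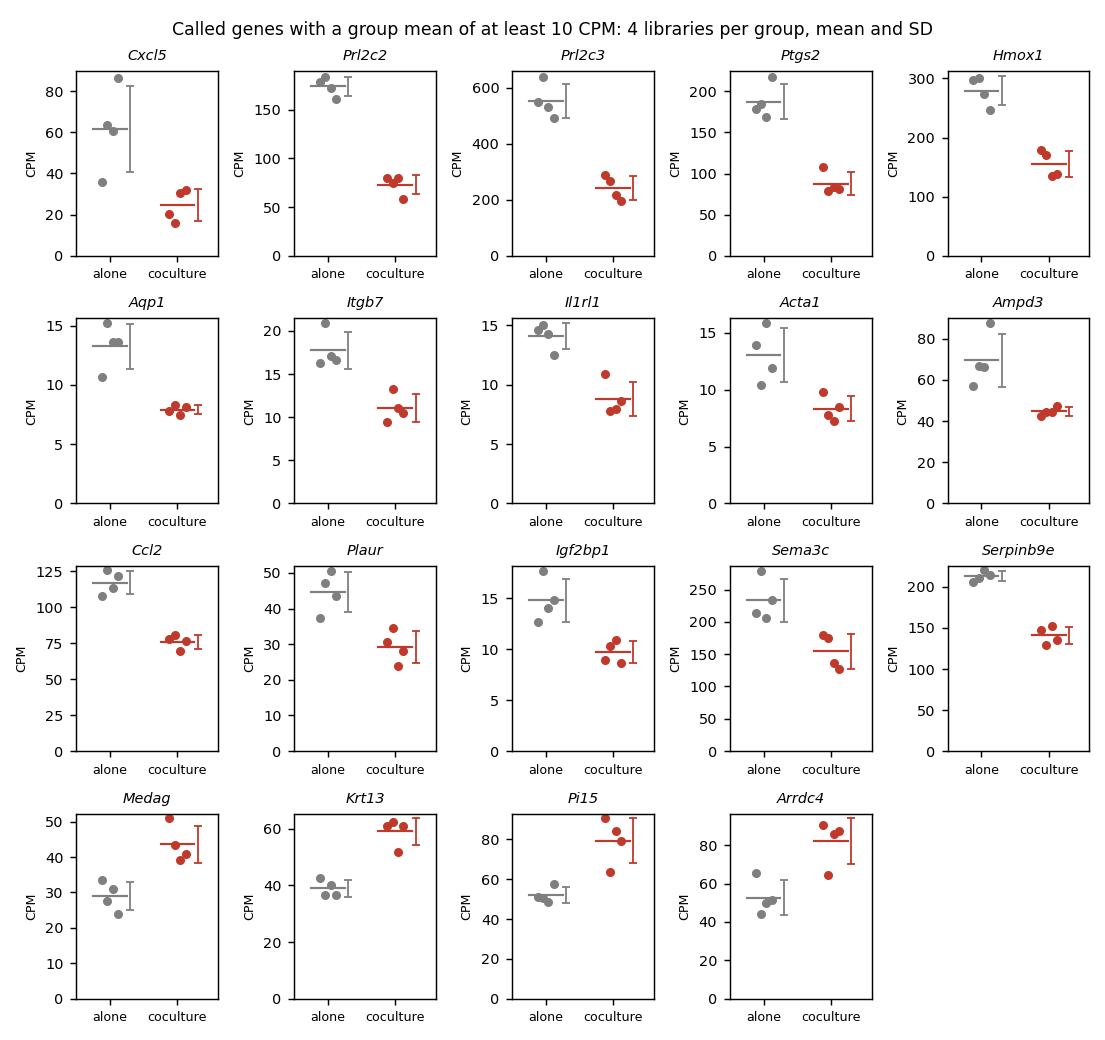
CPM by library (points), mean (long bar) and SD (error bar) in MS-5 alone (grey) and in coculture (red), n = 4 each, for the 19 called genes with a mean of at least 10 CPM in a group. Each vertical axis starts at 0. The groups overlap for Arrdc4 and for no other gene shown. The genes were picked by the test on these same libraries, so their separation adds no support. Of all tested genes, 6.74% were apart in either direction.

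Proliferins are secreted hormones of the prolactin family that were first known from growing mouse cells and placenta. They are encoded by near-identical genes in a cluster on mouse chromosome 13. The sequences of Prl2c2, Prl2c3 and Prl2c5 are shown because their likeness decides how far the 3 genes can be told apart by short reads. The stretches below are from the coding strand of the GRCm38 transcripts of GENCODE M21, counted from 1 at the first base of the start codon, and capitals mark bases at which the 3 copies are not all the same. Bases 1 to 31 lie in exon 1, bases 170 to 207 in exon 2 and bases 316 to 349 in exon 4.
Prl2c2, exon 1 (chr13:13005296-13005326, minus strand): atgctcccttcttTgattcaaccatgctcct
Prl2c3, exon 1 (chr13:12799982-12800012, minus strand): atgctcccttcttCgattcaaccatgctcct
Prl2c5, exon 1 (chr13:13182782-13182812, plus strand): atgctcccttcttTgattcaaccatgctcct
Prl2c2, exon 2 (chr13:13002134-13002171, minus strand): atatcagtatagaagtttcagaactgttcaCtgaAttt
Prl2c3, exon 2 (chr13:12796831-12796868, minus strand): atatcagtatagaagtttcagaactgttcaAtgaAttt
Prl2c5, exon 2 (chr13:13185928-13185965, plus strand): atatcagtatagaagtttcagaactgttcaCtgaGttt
Prl2c2, exon 4 (chr13:12997434-12997467, minus strand): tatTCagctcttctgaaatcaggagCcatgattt
Prl2c3, exon 4 (chr13:12792141-12792174, minus strand): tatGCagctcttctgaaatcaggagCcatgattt
Prl2c5, exon 4 (chr13:13190586-13190619, plus strand): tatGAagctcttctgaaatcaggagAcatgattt
Over 672 coding bases Prl2c2 and Prl2c3 differed at 3 positions, T14C, C200A and T319G with the base of Prl2c2 first, which is an identity of 99.6%. Prl2c5, with 666 coding bases, was 97.0% identical to Prl2c2 and 96.8% to Prl2c3. Of all read-length stretches in each gene's transcript, 34.1% in Prl2c2, 38.0% in Prl2c3 and 97.3% in Prl2c5 were not in those of the other 2 genes. These shares are for single reads and these 3 genes alone. A fragment has a pair of reads, and further copies of the family were not compared. Only fragments with a unique alignment were counted, so the levels of Prl2c2 and Prl2c3 are uncertain as absolute values.

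All 3 tested proliferins were called lower (3 of 3 called, against 0.164% of all tested genes). The list was chosen with earlier results of these data known, and Prl2c2 and Prl2c3 are near-identical, so this share is no test of the family. Prl2c3 (ENSMUSG00000056457, chromosome 13, 12790816 to 12800079) was the most abundant, with the position in GRCm38 as for all genes below. It was at 551, 639.8, 531 and 494 CPM in MS-5 alone and 289, 266, 216 and 196 CPM in coculture for replicates 1 to 4, the order used for all values by library. No coculture library reached the lowest library of MS-5 alone. The means were 554 ± 61.9 CPM alone and 242 ± 43.1 CPM in coculture (SD, n = 4), a fall of more than 1.5 times (log2 fold change -1.20, SE 0.11, edgeR adjusted p = 5.73e-05). Prl2c2 (ENSMUSG00000079092, chromosome 13, 12996125 to 13005383) was at 178, 184, 172 and 161 CPM in MS-5 alone and 79.8, 75.2, 79.6 and 58.2 CPM in coculture. These groups were also apart, and the test gave the smallest adjusted p of all genes (log2 fold change -1.25, SE 0.09, edgeR adjusted p = 5.61e-06). Per length, Prl2c3 was at 407 RPKM (CPM per kilobase of exon) alone and 178 RPKM in coculture, and Prl2c2 at 160 and 67.2 RPKM. Prl2c5, the copy that reads can tell apart best, was at 3.77, 3.48, 3.47 and 2.66 CPM in MS-5 alone and 1.83, 1.5, 1.87 and 1.08 CPM in coculture. It was lower by a similar amount (log2 fold change -1.09, SE 0.24, edgeR adjusted p = 0.0481) on 34 to 65 counts per library. DESeq2 gave no adjusted p for Prl2c5 and did not call it. Prl2c2 and Prl2c3 were called whichever library was left out, whereas the call of Prl2c5 was lost without any 1 of the 8, with adjusted p from 0.0638 (without coculture replicate 1) to 0.166 (without replicate 3 of MS-5 alone). Of the other listed relatives, Prl2c1, Prl2b1 and Prl8a2 had no count in any of the 8 libraries.

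Prostaglandin synthesis starts with the release of arachidonic acid by the phospholipase Pla2g4a. The cyclooxygenases Ptgs1 and Ptgs2 convert the acid to prostaglandin H2, and synthases such as Ptges make prostaglandin E2 from it. Ptgs2 (ENSMUSG00000032487, chromosome 1, 150100031 to 150108227), the inducible cyclooxygenase, was at 179, 184, 168 and 218 CPM in MS-5 alone and 108, 78.9, 83.4 and 81.1 CPM in coculture. The coculture libraries were all lower, the nearest being replicate 1. Its mean changed from 187 ± 21.4 CPM alone to 87.9 ± 13.5 CPM in coculture (log2 fold change -1.09, SE 0.10, edgeR adjusted p = 5.73e-05), and it was called with each library left out. Pla2g4a fell as well, with libraries at 80.5, 88.6, 80.8 and 85.8 CPM in MS-5 alone and 66.4, 68.7, 64.8 and 63.9 CPM in coculture (log2 fold change -0.35, SE 0.06, edgeR adjusted p = 0.0116). The prostaglandin transporter Slco2a1 (402 to 319 CPM, log2 fold change -0.33, edgeR adjusted p = 0.0523), the synthase Ptges (73.5 to 60.9 CPM, -0.27, edgeR adjusted p = 0.0836) and the constitutive Ptgs1 (302 to 257 CPM, -0.23, edgeR adjusted p = 0.106) did not pass. Of 10 tested genes of the pathway 2 passed, both lower (against 0.574% of all tested genes). A fold change below 0 was seen in 9 (median -0.25), against 50.4% of all tested genes. The summed level of the list was 1566 to 1691 CPM alone and 1287 to 1413 CPM in coculture. The receptors Ptger1, Ptger2, Ptger3 and Ptgfr were not counted well enough, while the receptor Ptger4 was at 10.1 to 7.99 CPM and did not pass (edgeR adjusted p = 0.347).

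Hmox1 (ENSMUSG00000005413, chromosome 8, 75093621 to 75100589) encodes the heme oxygenase that breaks heme down to iron, carbon monoxide and biliverdin. Its libraries were at 297, 301, 275 and 246 CPM in MS-5 alone and 179, 170.1, 134 and 138 CPM in coculture. Every coculture library was below every library of MS-5 alone, and the mean changed from 279.7 ± 25.03 CPM alone to 155 ± 22.3 CPM in coculture (log2 fold change -0.85, SE 0.09, edgeR adjusted p = 0.000264). It was called with each library left out. Among 37 tested NRF2 targets it was the only called gene, but 8 fell at an adjusted p of at most 0.05, against 0.574% of all tested genes, and none rose. Gclm and Gclc, the subunits of the enzyme that limits glutathione synthesis, were among them. Gclm was at 148, 143, 142 and 138 CPM in MS-5 alone and 109, 108, 107 and 107 CPM in coculture (log2 fold change -0.41, SE 0.05, edgeR adjusted p = 0.000944), and its coculture libraries differed little from each other. Gclc was at 166, 164, 154 and 157 CPM in MS-5 alone and 130.2, 117, 134 and 118 CPM in coculture (log2 fold change -0.36, SE 0.06, edgeR adjusted p = 0.0097). The quinone reductase Nqo1 fell from 123 ± 10.6 CPM alone to 86.6 ± 10.00 CPM in coculture (log2 fold change -0.51, SE 0.08, edgeR adjusted p = 0.0102). Srxn1 (sulfiredoxin) and Txnrd1 (thioredoxin reductase), which regenerate peroxiredoxin and thioredoxin, fell by 0.33 each on the log2 scale (edgeR adjusted p = 0.00168 and 0.0147). The glutathione transferase Gsta4 (-0.41, edgeR adjusted p = 0.0236) and the NADPH-producing Pgd (-0.26, edgeR adjusted p = 0.0115) completed the 8. Hmox1, Nqo1, Gclm, Gclc and Srxn1 passed with each library left out, Pgd in 7 of these 8 fits, Txnrd1 in 5 and Gsta4 in 3.

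Nfe2l2 itself, which encodes NRF2, was at 189 ± 11.4 CPM alone and 196 ± 16.5 CPM in coculture (log2 fold change 0.05, 95% interval -0.09 to 0.19) and its inhibitor Keap1 at 83.7 ± 9.53 CPM alone and 80.3 ± 8.05 CPM in coculture (-0.06, 95% interval -0.25 to 0.12). Neither passed the test, and the intervals leave out a change of 1.5-fold in these libraries. The cystine transporter Slc7a11, a known NRF2 and ATF4 target, was at 10.7, 5.37, 9.03 and 8.29 CPM in MS-5 alone and 9.27, 8.1, 9.95 and 8.52 CPM in coculture, with overlapping groups. Of the 37 targets 31 had a fold change below 0, with a median of -0.12, against 50.4% of all tested genes. The summed level of the list was 12916 to 13412 CPM alone and 11512 to 11897 CPM in coculture. Genes of iron and heme handling went partly with them. Of 18 tested genes 3 fell, against 0.574% of all tested genes, and none rose. One of the 3 was Hmox1, counted above among the NRF2 targets. The transferrin receptor Tfrc, which brings iron into cells, was at 244, 303, 259 and 259 CPM in MS-5 alone and 175, 193, 179 and 171 CPM in coculture (log2 fold change -0.57, SE 0.07, edgeR adjusted p = 0.000583). The heme transporter Slc48a1 was at 711, 679, 683 and 702 CPM in MS-5 alone and 567, 554, 547 and 555 CPM in coculture (log2 fold change -0.32, SE 0.04, edgeR adjusted p = 0.00168). For Tfrc the human gene had up to 112% of the mouse counts in the same Adh library, and for Hmox1 and Slc48a1 at most 1.72% and 0.886%. With 1% of the human counts subtracted the log2 fold change of Tfrc was -0.57 (still past the limit). The subtraction lowers the coculture counts only, so it is no check on a gene that falls. The ferritin genes Fth1 (4469 to 3901 CPM, -0.20, edgeR adjusted p = 0.0523) and Ftl1 (991 to 912 CPM, -0.12, edgeR adjusted p = 0.566) and the iron exporter Slc40a1 (24.3 to 22.2 CPM, -0.14, edgeR adjusted p = 0.874) did not pass.

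**Figure D3:**
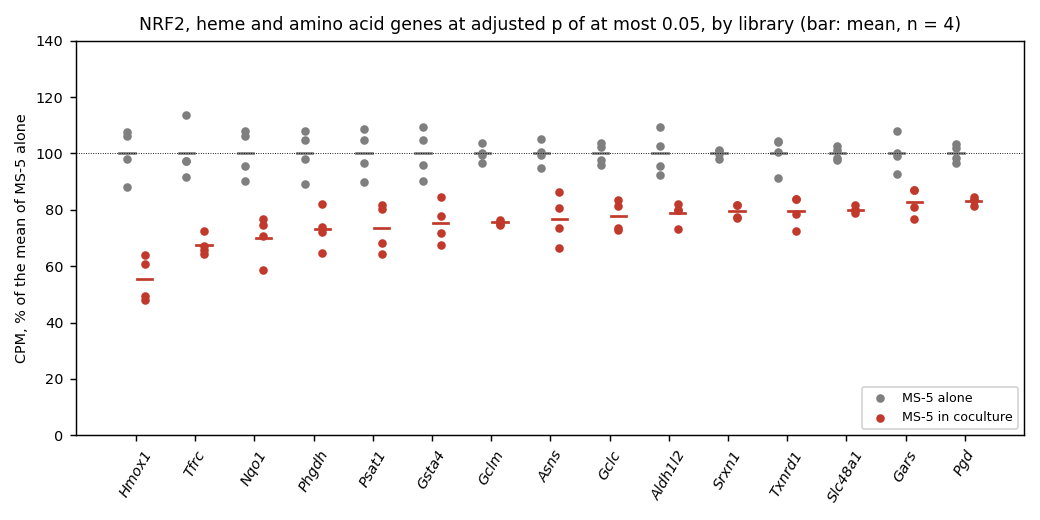
CPM of each library as a percentage of the mean of MS-5 alone, for the 15 NRF2, iron, heme and amino acid genes at an adjusted p of at most 0.05. Grey points are the 4 libraries of MS-5 alone, red points the 4 coculture libraries, bars the means. In all 15 genes every coculture library lies below every library of MS-5 alone, and the means run from 55.6% (Hmox1) to 83.2% (Pgd). The genes were picked by the test on these same libraries, so their separation adds no support. Of all tested genes, 3.68% were apart in this direction.

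Of 32 tested genes of amino acid supply, 5 fell by small amounts, against 0.574% of all tested genes. ATF4 drives these genes when amino acids run short or the endoplasmic reticulum is stressed. The serine synthesis enzymes act in sequence, and the first, Phgdh, was at 321, 293, 344 and 355 CPM in MS-5 alone and 213, 237, 243 and 269.8 CPM in coculture (log2 fold change -0.45, SE 0.07, edgeR adjusted p = 0.0097). The next, Psat1, was at 566, 525, 612 and 635 CPM in MS-5 alone and 377, 399, 469 and 478 CPM in coculture (log2 fold change -0.44, SE 0.08, edgeR adjusted p = 0.014). The last, Psph, was at 50.8 ± 8.78 CPM alone and 36.8 ± 5.92 CPM in coculture and did not pass (log2 fold change -0.47, edgeR adjusted p = 0.114), though its libraries did not overlap either. Asns, which makes asparagine, fell from 278 ± 11.7 CPM alone to 213 ± 23.8 CPM in coculture (log2 fold change -0.38, SE 0.07, edgeR adjusted p = 0.0155), and so did the mitochondrial folate enzyme Aldh1l2 (-0.35, edgeR adjusted p = 0.0191) and the glycyl-tRNA synthetase Gars (-0.27, edgeR adjusted p = 0.0442). None of the 32 was called and none rose. A fold change below 0 was seen in 30 of the 32 (median -0.19), against 50.4% of all tested genes (median -0.0017), and the summed level was 4271 to 5058 CPM alone and 3319 to 4219 CPM in coculture. Atf4 was at 295, 309, 375 and 341 CPM in MS-5 alone and 238, 279, 309.6 and 327 CPM in coculture (log2 fold change -0.19, edgeR adjusted p = 0.443), with overlapping groups. Its stress targets Trib3 (-0.05, 95% interval -0.51 to 0.41) and Atf3 (-0.10, 95% interval -0.62 to 0.42) did not pass. Bcat1, which transfers the amino group of branched-chain amino acids and is outside the list, fell from 79.1 ± 2.71 CPM alone to 57.97 ± 1.51 CPM in coculture (log2 fold change -0.45, SE 0.06, edgeR adjusted p = 0.00138), with up to 338% as many human as mouse counts in the same library. With 1% of the human counts subtracted it still passed (log2 fold change -0.48). As for Tfrc, this lowers the coculture counts only and is no check on a fall. Phgdh and Psat1 passed in 6 of the 8 fits without 1 library, as did Asns, while Aldh1l2 passed in 4 and Gars in 1.

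Chemokines moved in both directions. Of 24 listed genes 10 were tested, and 5 passed, 4 lower and 1 higher, against 0.574% and 0.197% of all tested genes. Cxcl5 and Cxcl1 attract neutrophils through the receptor CXCR2. Cxcl5 (ENSMUSG00000029371, chromosome 5, 90759360 to 90761624) was at 35.8, 63.6, 60.4 and 86.4 CPM in MS-5 alone and 20.3, 16.1, 30.5 and 32.1 CPM in coculture. It varied more between libraries than Cxcl1, Ccl2 and Ccl7, but the highest coculture library was still below the lowest of MS-5 alone (log2 fold change -1.31, SE 0.23, edgeR adjusted p = 0.014). Cxcl1 (ENSMUSG00000029380, chromosome 5, 90891241 to 90893115) was at 5.3, 6.77, 8.22 and 7.67 CPM in MS-5 alone and 3.9, 3.27, 3.57 and 3.3 CPM in coculture (log2 fold change -0.99, SE 0.17, edgeR adjusted p = 0.0107). Ccl2 and Ccl7, neighbours on chromosome 11, attract monocytes. Ccl2 (ENSMUSG00000035385, chromosome 11, 82035571 to 82037453) was at 108, 126, 113 and 122 CPM in MS-5 alone and 77.8, 80.7, 69.3 and 76.3 CPM in coculture, with a gap between the groups (log2 fold change -0.62, SE 0.07, edgeR adjusted p = 0.000264). Ccl7 (ENSMUSG00000035373, chromosome 11, 82045712 to 82047525) was at 194, 197, 179 and 189 CPM in MS-5 alone and 147, 146, 124 and 135 CPM in coculture and fell by less than 1.5-fold (log2 fold change -0.46, SE 0.06, edgeR adjusted p = 0.00168). No human count was found for any of these 4 genes in the Adh libraries. Ccl9 (37.9 to 41.99 CPM), Cxcl14 (28.5 to 33.4 CPM) and Cx3cl1 (23.3 to 31.1 CPM, 0.41, edgeR adjusted p = 0.0751) did not pass. The call of Cxcl5 was lost without replicate 2, 3 or 4 of MS-5 alone (edgeR adjusted p = 0.0579, 0.0587 and 0.0573), that of Cxcl1 without replicate 3 or 4 of MS-5 alone (0.063 and 0.0522). Without coculture replicate 3 Ccl2 stayed under an adjusted p of 0.05 but changed by less than 1.5-fold (log2 fold change -0.58).

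Cxcl12 (ENSMUSG00000061353, chromosome 6, 117168535 to 117181367) is the ligand of CXCR4 and holds B cells and their precursors in marrow. It was the chemokine that rose, at 394, 304, 309 and 279 CPM in MS-5 alone and 521, 383, 428 and 435 CPM in coculture. Replicate 1 was the highest library in both groups, and replicate 1 of MS-5 alone lay above coculture replicate 2, so the groups overlapped. Each coculture library lay above the library of MS-5 alone with the same number, though no source says that numbers mark pairs. The mean changed from 321 ± 50.2 CPM alone to 442 ± 57.6 CPM in coculture (SD, n = 4; log2 fold change 0.46, SE 0.10, edgeR adjusted p = 0.0486), which is under the 1.5-fold limit. Cxcl12 passed in only 2 of the 8 fits without 1 library, with log2 fold changes from 0.37 to 0.57. Per length its level rose from 39.3 to 54.0 RPKM, while Csf1 was at 135 and 114 RPKM, Ccl2 at 103 and 66.8 RPKM and Kitl at 18.7 and 17.4 RPKM.

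Cxcl12 was the only 1 of 25 tested support factors to pass, against 0.77% of all tested genes. Kitl, which keeps blood stem cells alive, was at 119, 117, 104 and 102 CPM in MS-5 alone and 119, 90.05, 105 and 98.1 CPM in coculture (log2 fold change -0.10, 95% interval -0.27 to 0.08). Csf1, the growth factor of macrophages, was at 667, 780.1, 713 and 683 CPM in MS-5 alone and 624, 705, 538 and 548 CPM in coculture (-0.23, 95% interval -0.40 to -0.07, edgeR adjusted p = 0.226). Il7, a growth factor of early B cells, was at 4.46, 3.38, 5.09 and 3.52 CPM in MS-5 alone and 5.7, 4.7, 6.07 and 5.91 CPM in coculture (0.42, 95% interval 0.06 to 0.78, edgeR adjusted p = 0.344). Spp1 (osteopontin), a secreted ligand of integrins, was at 6969, 4939, 5197 and 5208 CPM in MS-5 alone and 8447, 6301, 6493 and 6914 CPM in coculture, with replicate 1 high in both groups (0.34, 95% interval 0.12 to 0.55, edgeR adjusted p = 0.186). The B cell survival factor Tnfsf13b (BAFF) and Il6 were under the filter, at no more than 0.381 and 0.199 CPM.

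Of 19 tested genes of lymphocyte adhesion none passed in edgeR or DESeq2 (median log2 fold change -0.0040; 3 had an unadjusted p under 0.05, all higher). Vcam1, the ligand of integrin VLA-4 on lymphocytes, was at 15.6, 15.3, 13.6 and 14.1 CPM in MS-5 alone and 14.6, 13.6, 14.3 and 14.97 CPM in coculture (-0.03, 95% interval -0.23 to 0.18). Fibronectin (Fn1) was at 1229 ± 82.4 CPM alone and 1270.3 ± 176 CPM in coculture (0.05, 95% interval -0.12 to 0.22), Cd44 at 153 ± 2.97 CPM alone and 146 ± 17.1 CPM in coculture (-0.07, 95% interval -0.23 to 0.08) and the integrin chain Itgb1 at 921 ± 34.1 CPM alone and 913 ± 54.8 CPM in coculture (-0.01, 95% interval -0.12 to 0.10). Icam1, the ligand of integrin LFA-1, had no mouse count in any of the 8 libraries. Of the 30 support and adhesion genes with a mean of at least 10 CPM, 27 had a 95% interval that lay wholly within 1.5-fold in either direction.

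**Figure D4:**
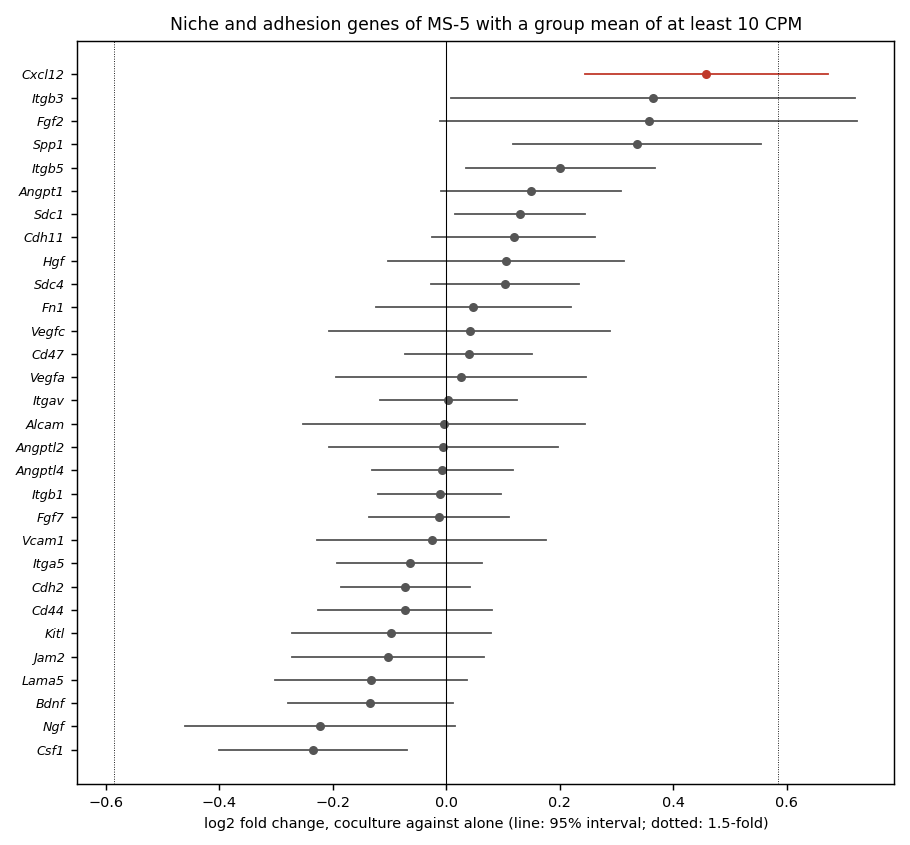
Log2 fold change (points) and its 95% interval (lines) for the 30 haematopoietic support and lymphocyte adhesion genes with a mean of at least 10 CPM in a group. Dotted lines mark a fold change of 1.5. Cxcl12, in red, is the gene with an adjusted p of at most 0.05, and the intervals of Cxcl12, Itgb3 and Fgf2 reach beyond 1.5-fold.

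Few inflammatory genes other than the chemokines passed. Of 21 tested genes of the NF-kB and inflammatory list 1 passed, against 0.77% of all tested genes. This was Il1rl1, the receptor of interleukin-33, at 14.6, 15.03, 14.3 and 12.5 CPM in MS-5 alone and 10.9, 7.8, 7.94 and 8.64 CPM in coculture (log2 fold change -0.68, SE 0.13, edgeR adjusted p = 0.0188). Nfkbia, a feedback inhibitor that NF-kB induces, was at 54.96, 60.5, 52.8 and 67.4 CPM in MS-5 alone and 53.7, 61.1, 51.1 and 61.9 CPM in coculture (-0.05, 95% interval -0.23 to 0.14), and the feedback inhibitor Tnfaip3 at 48.8 ± 2.96 CPM alone and 38.3 ± 3.73 CPM in coculture (log2 fold change -0.35, edgeR adjusted p = 0.0633). Plaur, the receptor of the protease urokinase, was called lower at 37.5, 47.1, 50.6 and 43.4 CPM in MS-5 alone and 30.7, 34.5, 23.9 and 28.02 CPM in coculture (log2 fold change -0.61, SE 0.11, edgeR adjusted p = 0.016). Il1rl1 lost its call without MS-5 alone replicate 2 (0.0792), MS-5 alone replicate 3 (0.0831), Adh replicate 3 (0.076) and Adh replicate 4 (0.051), and Plaur without MS-5 alone replicate 2 (0.0792), MS-5 alone replicate 3 (0.094), MS-5 alone replicate 4 (0.0573) and Adh replicate 3 (0.0658), the adjusted p standing in brackets. None of 26 tested interferon-stimulated genes passed, although 22 had a fold change above 0 (median 0.17). An unadjusted p under 0.05 in edgeR was seen in 8, all higher, against 5.16% of all tested genes. A fold change below 0 was seen in 50.4% of all tested genes. The immunoproteasome subunit gene Psmb8 was at 24.5, 20.7, 25.4 and 24.1 CPM in MS-5 alone and 29.1, 29.9, 30.4 and 32.8 CPM in coculture (log2 fold change 0.36, edgeR adjusted p = 0.0594), and its groups did not overlap. Of 17 tested MHC class I genes none passed (6 higher and 2 lower at an unadjusted p under 0.05), with B2m at 170.2 ± 12.5 CPM alone and 186 ± 13.5 CPM in coculture and H2-K1 at 57.5 ± 5.67 CPM alone and 60.7 ± 3.59 CPM in coculture. With DESeq2 2 interferon-stimulated and 1 MHC class I gene reached an adjusted p of 0.05 or less.

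The contractile and matrix genes showed a fall in smooth muscle actin and single changes in the matrix. Acta2, which marks contractile stroma, was at 789, 759, 942 and 802 CPM in MS-5 alone and 588, 602, 564 and 568 CPM in coculture (log2 fold change -0.50, SE 0.06, edgeR adjusted p = 0.000944). Cyr61, a secreted target of the mechanical sensor YAP, was at 277, 379.7, 345 and 349 CPM in MS-5 alone and 207, 222, 232 and 259 CPM in coculture (log2 fold change -0.55, SE 0.09, edgeR adjusted p = 0.00825). These were the 2 of 24 tested contractile, SRF and YAP genes that passed, against 0.77% of all tested genes. The listed contractile genes Tagln, Cnn1, Myh11 and Lmod1 were not tested, with at most 13, 4, 2 and 18 counts in any library. Ctgf, another YAP target, was at 323, 335, 276 and 196 CPM in MS-5 alone and 416, 331, 223 and 235 CPM in coculture and overlapped (0.09, 95% interval -0.29 to 0.48). Of the 24, 21 had a fold change below 0 (median -0.15), against 50.4% of all tested genes. Acta1, the skeletal muscle actin, was called lower at 13.9, 10.4, 15.9 and 11.9 CPM in MS-5 alone and 9.83, 7.8, 7.25 and 8.45 CPM in coculture (log2 fold change -0.66, SE 0.14, edgeR adjusted p = 0.0481) but stayed called in only 2 of the 8 fits without 1 library. It lost the call without any library except replicate 2 of MS-5 alone and coculture replicate 1 (edgeR adjusted p = 0.0785 to 0.211). Acta1, Acta2 and Actg2 are close paralogs, so reads between them may be split or dropped by unique mapping. Actg2, a smooth muscle actin at 11.5 to 7.86 CPM, did not pass (-0.56, edgeR adjusted p = 0.109).

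Thrombospondin 2 (Thbs2), a matrix glycoprotein that restrains vessel growth, was abundant, at 944 RPKM alone and 1151 RPKM in coculture. It was at 6807, 6511, 6516 and 6602 CPM in MS-5 alone and 7885, 7809.9, 8331 and 8225 CPM in coculture (log2 fold change 0.29, SE 0.04, edgeR adjusted p = 0.0018). Every coculture library was above every library of MS-5 alone, and Thbs2 passed with each library left out. No other of 24 tested matrix glycoproteins passed, against 0.77% of all tested genes. Of 16 tested collagen genes none was called and 2 passed, against 0.77% of all tested genes. Col6a1 rose (699.9 to 834 CPM, log2 fold change 0.25, edgeR adjusted p = 0.0486) and Col5a2 fell (1453 to 1219 CPM, -0.25, edgeR adjusted p = 0.016). Col6a2, whose product joins with that of Col6a1, was at 538 to 647 CPM (0.26, edgeR adjusted p = 0.051). The type I collagen genes Col1a1 (0.01, 95% interval -0.18 to 0.21) and Col1a2 (0.10, 95% interval -0.02 to 0.21) did not pass. None of 28 tested matrix proteases and crosslinkers passed in edgeR, where 3 were higher and 4 lower at an unadjusted p under 0.05, while 4 passed in DESeq2. The collagenase Mmp13 was at 10.7, 6.37, 8.45 and 7.98 CPM in MS-5 alone and 10.6, 10.1, 18.2 and 14.5 CPM in coculture (log2 fold change 0.66, edgeR adjusted p = 0.165). It was called by DESeq2 (0.66, DESeq2 adjusted p = 0.0316) and in edgeR without the low-count filter (0.67). The fit without that filter gave far smaller adjusted p for some genes, such as Sema3c (edgeR, 1.79e-17 against 0.0185). Its call of Mmp13 therefore adds little. The crosslinking enzyme Lox was at 1771, 1412, 1589 and 1677 CPM in MS-5 alone and 2062, 1572, 2016 and 1978 CPM in coculture (0.24, edgeR adjusted p = 0.235).

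Serpinb9 genes form a cluster on chromosome 13 that is expanded in mouse, and Serpinb9 itself inhibits granzyme B. Serpinb9e (ENSMUSG00000062342, chromosome 13, 33249612 to 33260850) was called lower at 207, 211, 221 and 214 CPM in MS-5 alone and 147, 129.8, 152 and 136 CPM in coculture (log2 fold change -0.59, SE 0.06, edgeR adjusted p = 0.000118), and Serpinb9b fell at 47.8, 51.2, 45.1 and 46.4 CPM in MS-5 alone and 32.7, 34.9, 33.4 and 31.8 CPM in coculture (log2 fold change -0.52, SE 0.07, edgeR adjusted p = 0.00168). Serpinb9d was at 10.4, 13.7, 13.8 and 13.4 CPM in MS-5 alone and 9.6, 7.69, 9.23 and 7.21 CPM in coculture and missed the limit (-0.60, edgeR adjusted p = 0.0523), and Serpinb9 was at 41.6 ± 4.78 CPM alone and 40.5 ± 3.76 CPM in coculture (-0.04, 95% interval -0.24 to 0.15). Coding sequences of Serpinb9e and Serpinb9d were 94.8% identical and those of Serpinb9e and Serpinb9b 78.9%. Of read-length stretches, 90.2% in Serpinb9e and 100% in Serpinb9b were in no other of the 6 genes compared. Among these 6 they could be counted apart, and further copies were not compared. Of 16 tested serpin genes 2 passed, both lower, against 0.574% of all tested genes. Serpinb9e kept an adjusted p under 0.05 with each library left out, but its change was under 1.5-fold with upper-quartile scaling, total count scaling or no low-count filter (log2 fold change -0.58 in each), and without MS-5 alone replicate 3 (-0.57), Adh replicate 2 (-0.55) and Adh replicate 4 (-0.57), the log2 fold change standing in brackets.

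Of the 5 genes called higher, Arrdc4 is an alpha-arrestin that cells raise with glucose. It was at 65.3, 43.99, 49.7 and 51.6 CPM in MS-5 alone and 90.3, 64.4, 85.8 and 87.5 CPM in coculture, where replicate 1 of MS-5 alone lay above coculture replicate 2 (log2 fold change 0.64, SE 0.12, edgeR adjusted p = 0.016). Its paralog Txnip, raised by the same sensor, was at 79.02, 53.2, 61.6 and 54.1 CPM in MS-5 alone and 99.3, 76.4, 77.3 and 85.5 CPM in coculture (0.45, edgeR adjusted p = 0.103). No other of 9 tested genes of glucose sensing passed, against 0.77% of all tested genes. Krt13, a keratin, was at 42.5, 36.5, 40.1 and 36.5 CPM in MS-5 alone and 61.1, 62.4, 51.7 and 60.8 CPM in coculture (log2 fold change 0.60, SE 0.08, edgeR adjusted p = 0.00168). Pi15, a secreted peptidase inhibitor, was at 51.3, 50.5, 48.4 and 57.8 CPM in MS-5 alone and 90.6, 63.9, 84.1 and 79.3 CPM in coculture (log2 fold change 0.61, SE 0.10, edgeR adjusted p = 0.00825), and Medag, a gene linked to adipogenesis, at 33.4, 27.7, 30.8 and 24.02 CPM in MS-5 alone and 50.9, 43.5, 39.2 and 40.9 CPM in coculture (log2 fold change 0.59, SE 0.11, edgeR adjusted p = 0.0147). RP24-250L13.2 (ENSMUSG00000111602, chromosome 9, 8644073 to 8740988), a long intergenic noncoding RNA, was at 3.28, 2.09, 3.47 and 4.46 CPM in MS-5 alone and 5.97, 6.13, 6.84 and 6.74 CPM in coculture (log2 fold change 0.93, SE 0.18, edgeR adjusted p = 0.0266). Exons of Medag shared 1453 bases with the gene Gm20488 on the same strand. For Krt13, Pi15, Medag and this RNA every coculture library was above every library of MS-5 alone. Arrdc4 lost its call without MS-5 alone replicate 2 (0.0763), MS-5 alone replicate 3 (0.0831), MS-5 alone replicate 4 (0.0644) and Adh replicate 3 (0.0658), with adjusted p in brackets. The log2 fold change of Krt13 fell just under the limit without MS-5 alone replicate 2 (0.57), MS-5 alone replicate 4 (0.57), Adh replicate 2 (0.57) and Adh replicate 4 (0.58), and that of Pi15 without MS-5 alone replicate 3 (0.58) and Adh replicate 1 (0.55). Medag lost its call without replicate 2, 3 or 4 of MS-5 alone (edgeR adjusted p = 0.0693, 0.0532 and 0.0573) and, on the fold change, without coculture replicate 1 (log2 fold change 0.51). RP24-250L13.2 lost it without MS-5 alone replicate 1 (0.0509), MS-5 alone replicate 2 (0.0693), MS-5 alone replicate 3 (0.094), Adh replicate 3 (0.0908) and Adh replicate 4 (0.0691).

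Among the genes that rose by less than 1.5-fold were Pdk1, Bnip3 and Scd2. Pdk1, a kinase that inhibits pyruvate dehydrogenase, was at 66.7, 61.9, 61.6 and 56.3 CPM in MS-5 alone and 91.4, 78.4, 76.6 and 78.7 CPM in coculture (log2 fold change 0.40, SE 0.07, edgeR adjusted p = 0.0155). Bnip3, which marks mitochondria for removal, was at 33.8, 31.1, 30.2 and 29.3 CPM in MS-5 alone and 38.6, 38.8, 39.7 and 39.9 CPM in coculture (log2 fold change 0.34, SE 0.07, edgeR adjusted p = 0.0364). Both are known targets of the hypoxia factor HIF-1, and they were the 2 of 30 tested glycolysis and hypoxia genes that passed, against 0.77% of all tested genes (list median 0.02). Ldha (2106 to 2136 CPM, 0.02, 95% interval -0.07 to 0.11) and Vegfa (67.3 to 68.5 CPM, 0.03, 95% interval -0.19 to 0.25) did not. Scd2, a desaturase that makes oleic acid, was at 606, 614, 620.0 and 679 CPM in MS-5 alone and 755, 767, 898 and 869 CPM in coculture (log2 fold change 0.39, SE 0.06, edgeR adjusted p = 0.00922), and Scd1 at 109 ± 10.3 CPM alone and 138 ± 20.9 CPM in coculture (0.34, edgeR adjusted p = 0.145). Scd2 was the only 1 of 27 tested genes of sterol and fatty acid synthesis to pass, against 0.77% of all tested genes.

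The remaining called genes were lower and of varied kind. Aqp1, a water channel, was at 10.7, 15.2, 13.6 and 13.6 CPM in MS-5 alone and 7.77, 8.31, 7.42 and 8.17 CPM in coculture (log2 fold change -0.74, SE 0.12, edgeR adjusted p = 0.0107), and Aqp5, another, at 2.58, 2.89, 2.08 and 3.52 CPM in MS-5 alone and 0.886, 1.12, 1.15 and 1.33 CPM in coculture (log2 fold change -1.29, SE 0.25, edgeR adjusted p = 0.0266). Both water channels were lower in every coculture library than in any library of MS-5 alone. Ampd3, which deaminates AMP, was at 57.1, 66.9, 66.4 and 87.6 CPM in MS-5 alone and 42.6, 44.3, 44.4 and 47.5 CPM in coculture (log2 fold change -0.63, SE 0.10, edgeR adjusted p = 0.00922). The secreted guidance factor Sema3c was at 214, 279, 206 and 233 CPM in MS-5 alone and 179.8, 175, 136 and 127 CPM in coculture (log2 fold change -0.59, SE 0.11, edgeR adjusted p = 0.0185). The integrin chain Itgb7 was at 16.3, 20.9, 17.1 and 16.7 CPM in MS-5 alone and 9.48, 13.2, 11.04 and 10.5 CPM in coculture (log2 fold change -0.68, SE 0.12, edgeR adjusted p = 0.0147), the RNA-binding protein gene Igf2bp1 at 12.7, 17.7, 14.1 and 14.8 CPM in MS-5 alone and 8.98, 10.3, 10.9 and 8.61 CPM in coculture (log2 fold change -0.60, SE 0.12, edgeR adjusted p = 0.0358). For these 4 genes too the groups were apart. For Igf2bp1 the human gene had up to 348% of the mouse counts in the same library, and for the other 5 at most 13.2%. With 1% of the human counts subtracted Igf2bp1 was still called. That subtraction lowers the coculture counts only and is no check on a fall. With libraries thinned to the smallest total the edgeR adjusted p of Igf2bp1 was 0.0501. Exons of Ampd3 shared 474 bases with those of other genes, which can remove or split reads there. Aldh1a7, an aldehyde dehydrogenase, was at 2.79, 3.38, 3.24 and 4.62 CPM in MS-5 alone and 1.36, 1.57, 1.44 and 1.14 CPM in coculture (log2 fold change -1.34, SE 0.23, edgeR adjusted p = 0.012). Lce1g, a gene of the skin barrier, had the lowest fold change and the lowest level of the called genes, at 1.39, 1.59, 1.97 and 0.939 CPM in MS-5 alone and 0.472, 0.34, 0.316 and 0.635 CPM in coculture (log2 fold change -1.74, SE 0.36, edgeR adjusted p = 0.0333).

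Each of these 8 calls was lost without at least 1 library. Ampd3 lost it without replicate 4 of MS-5 alone, where its log2 fold change was -0.50, and Aqp1 without replicate 3 of MS-5 alone (edgeR adjusted p = 0.0532). The adjusted p of Aldh1a7 was 0.0532 and 0.0598 without replicates 3 and 4 of MS-5 alone. Itgb7 lost its call without MS-5 alone replicate 2 (0.0693), MS-5 alone replicate 3 (0.0613), MS-5 alone replicate 4 (0.0522) and Adh replicate 3 (0.0645). Sema3c lost it without MS-5 alone replicate 2 (0.0815), MS-5 alone replicate 4 (0.0644), Adh replicate 3 (0.0939) and Adh replicate 4 (0.0426), the last of these on the fold change. Its change was also under 1.5-fold with upper-quartile scaling, total count scaling or no low-count filter (log2 fold change -0.58 in each). Aqp5 lost it without MS-5 alone replicate 2 (0.101), MS-5 alone replicate 3 (0.0587), MS-5 alone replicate 4 (0.136), Adh replicate 1 (0.0775) and Adh replicate 3 (0.0733). Igf2bp1 lost it without any library except replicate 1 of MS-5 alone and coculture replicate 2 (edgeR adjusted p = 0.0596 to 0.137). Lce1g stayed called in 1 of the 8 fits, without coculture replicate 4, and had an edgeR adjusted p of 0.0573 to 0.219 without any other library. DESeq2 gave no adjusted p for Aqp5, Aldh1a7 and Lce1g and did not call them.

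Growth and identity genes gave no call. None of 34 tested genes of S phase and mitosis passed in edgeR or DESeq2 (median 0.08, from -0.06 to 0.25, 5 higher at an unadjusted p under 0.05), with Mki67 at 486, 513, 507 and 561 CPM in MS-5 alone and 491, 617, 636 and 512 CPM in coculture (0.13, 95% interval -0.04 to 0.29) and Top2a at 527, 512, 508 and 544 CPM in MS-5 alone and 531, 586, 638 and 576 CPM in coculture (0.16, edgeR adjusted p = 0.261). None of 25 tested stromal lineage factors passed in edgeR (2 higher at an unadjusted p under 0.05; 1 passed in DESeq2). The fat cell regulator Pparg was at 118 ± 13.1 CPM alone and 112 ± 10.9 CPM in coculture (-0.08, 95% interval -0.25 to 0.10), the bone regulator Runx2 at 108 ± 5.27 CPM alone and 100.9 ± 9.22 CPM in coculture (-0.09, 95% interval -0.24 to 0.05) and the mesenchymal factor Prrx1 at 367 ± 16.6 CPM alone and 422 ± 25.6 CPM in coculture (0.20, edgeR adjusted p = 0.124). MS-5 expressed the fat cell genes Lpl and Fabp4, at 1551 ± 189.6 CPM alone and 1633 ± 244 CPM in coculture and 201 ± 19.3 CPM alone and 197 ± 5.88 CPM in coculture, but Adipoq, Plin1, Cfd and Lep were not counted well enough for the test. None of the 4 tested fat cell markers and 3 tested bone and cartilage markers passed in edgeR or DESeq2, and 1 of the latter had an unadjusted p under 0.05. Of 21 tested p53 targets 1 passed, against 0.77% of all tested genes. This was the kinase gene Plk2 (35.4 to 24.6 CPM, log2 fold change -0.52, edgeR adjusted p = 0.0333), and Cdkn1a was at 162 ± 11.6 CPM alone and 139.8 ± 21.2 CPM in coculture (-0.22, edgeR adjusted p = 0.367). Of 27 tested chaperone genes 1 passed, against 0.77% of all tested genes. It was the gene Hsph1 of an HSP110 chaperone (409 to 332 CPM, -0.30, edgeR adjusted p = 0.0425). No gene passed among 22 immediate early genes, 15 ERK feedback genes, 15 genes of G1 control, 26 genes of TGF-beta and BMP signalling, 10 of Notch, 7 of Wnt, 9 receptors of the TNF family or 25 lysosome and autophagy genes. For these 8 lists the median log2 fold change was between -0.14 and 0.15, 0 to 5 genes a list had an unadjusted p under 0.05 in edgeR, and 0 to 2 a list passed in DESeq2. The 7 tested protein genes of the mitochondrial genome all had a fold change below 0 (median -0.48), against 50.4% of all tested genes. Of these 7, none passed in edgeR or DESeq2, 3 had an unadjusted p under 0.05, and the libraries overlapped in each. Their summed level was 2822 to 5574 CPM alone and 1521 to 3479 CPM in coculture.

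**Figure D5:**
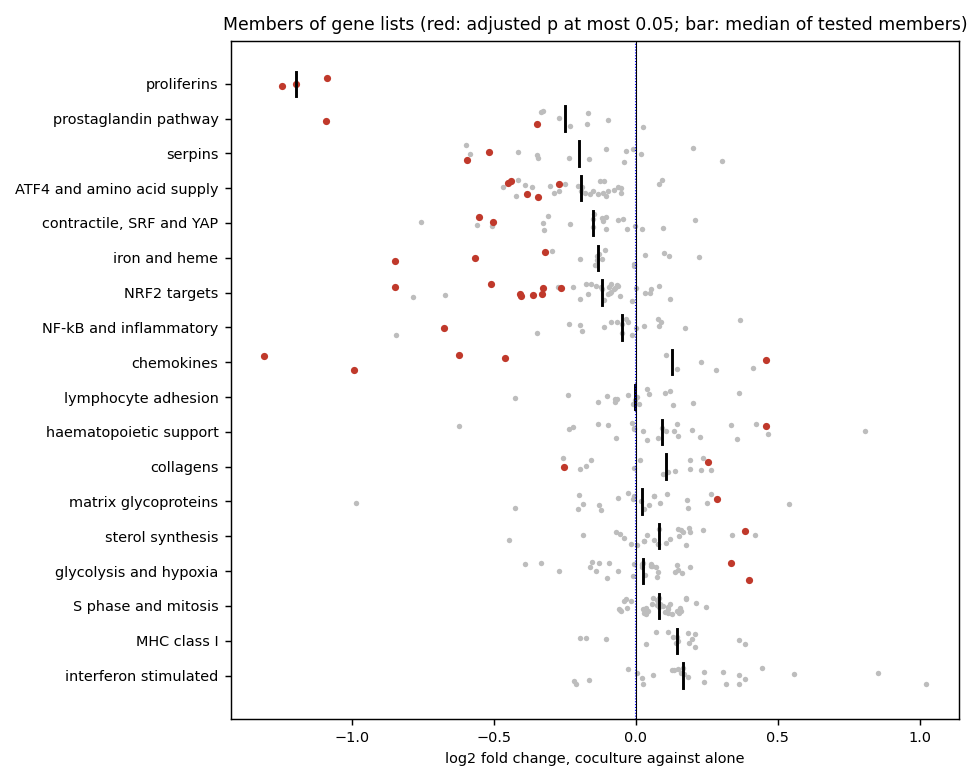
Log2 fold change of the tested members of 18 gene lists. Red points have an adjusted p of at most 0.05, grey points do not, black bars are medians, and the dotted line is the median of all tested genes. The proliferins lie farthest from 0, with a median of -1.20, and the chemokines have members on both sides.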

How the data were processed

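RNA of monocultured MS-5 and of the adherent coculture fraction was purified with poly-T beads and read as pairs. As the study's methods and processing notes describe, fragments were assigned to human or mouse, aligned with STAR 2.5.1b keeping unique alignments, and counted per gene with featureCounts of Subread 1.5.2 (GRCm38). The deposited values are whole-number counts per gene, made by the authors with no normalization. The strand setting is not given in the sources used here, and overlapping genes on opposite strands were not told apart. The 20 columns of the count tables that belong to other samples were not used.

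Mouse counts were analysed with edgeR 4.0.16 in R 4.3.3 (filterByExpr, TMM, glmQLFit in its legacy form, glmQLFTest, two-sided) on the 8 libraries with no covariate. P-values were adjusted by Benjamini-Hochberg over all 12201 tested genes. CPM are on TMM-scaled library sizes, and RPKM divide them by the union exon length of GENCODE M21. SE are of the log2 fold change, and intervals are at 95%. On simulated counts for the 12201 genes, the test called 165 of the 200 that had been changed and made 3 wrong calls. It called 22 of the 50 changed 1.5-fold, where the minimum on fold change itself removes calls. Of these 50, 37 reached an adjusted p of at most 0.05 in edgeR. The total of mouse counts sets the precision, and the limit at 3 counts covers counting error only. Alternatives were DESeq2 1.42.0, other scalings and filters, thinned libraries, subtraction of human counts, a replicate block and leaving out each library.

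Genes were named by rule: up to 10 called genes per direction with a mean of at least 10 CPM and no overlap, up to 4 called members of each of the 38 lists, a fixed list of stromal genes, and the markers, of which a few are not reported here. Called genes of low level, the overlapping Arrdc4, and genes at an adjusted p of 0.05 or less without a call were added after their values were seen. Members and lists were chosen with earlier results of these data known.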

Additional observations from a re-analysis of the deposited data

Results flagged for a closer look

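Of 343 groups of 4 libraries examined, 20 (5.83%) held 1 library whose distance from the other 3 was large for the spread of the group, 10 in each condition. Chance gives about 1 in 20, so the number as a whole is near that share.

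Among called genes, Ptgs2 was at 108.0 CPM in coculture replicate 1 and at 78.9 to 83.4 CPM in the other 3. Itgb7 was at 20.9 CPM in replicate 2 of MS-5 alone and at 16.3 to 17.1 CPM in the others. Krt13 was at 51.7 CPM in coculture replicate 3 and at 60.8 to 62.4 CPM in the others. Among genes that passed without a call, Pdk1 was at 91.4 CPM in coculture replicate 1 against 76.6 to 78.7 CPM, and Hsph1 at 353.8 CPM in coculture replicate 2 against 322.7 to 326.5 CPM.

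The other single libraries in coculture were Cd68 at 5.12 CPM and Col6a2 at 700.0 CPM in replicate 4, Csf1r at 0.978 CPM and Maoa at 246.3 CPM in replicate 3, Jag1 at 6.64 CPM in replicate 4 and Plekha7 at 44.2 CPM in replicate 2. In MS-5 alone they were Spp1 at 6969 CPM, Brd2 at 444.6 CPM, Serpinb9d at 10.4 CPM and RP23-320D23.6 at 28.2 CPM in replicate 1, Cebpa at 32.2 CPM and Runx2 at 115.5 CPM in replicate 2, Trp63 at 50.9 CPM in replicate 3 and Serpinb9g at 19.9 CPM in replicate 4. The first principal component of log2 CPM was 34.5 in replicate 2 of MS-5 alone and -4.04 to 0.639 in the other 3.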

How the results depend on the processing

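The 25 called genes (5 higher, 20 lower) became 45 with the replicate block (16 higher, 29 lower, 25 shared), and the 94 at adjusted p alone became 435. Mmp13 was called with the block (log2 fold change 0.65, edgeR adjusted p = 0.013). The sample codes of same-numbered libraries share their digit, but no source says what codes or numbers mark. Deviations of same-numbered libraries correlated at 0.033 to 0.286, with 2 of 4 over 0.1. Of the 4 coculture libraries 3 matched their own number best. Codes and correlations are a hint of pairing that no source states. Genes said above not to pass in edgeR did so in the fit without the block. DESeq2 called 29, of which 11 were higher and 21 shared. The edgeR calls it did not share were Prl2c5, Aldh1a7, Aqp5 and Lce1g, for which DESeq2 gave no adjusted p. Without a low-count filter 45 of 21574 genes were called (19 higher, 23 shared), with libraries thinned to the smallest total 22 (3 higher, 20 shared), and without a minimum on fold change 94 (24 higher, 70 lower). Upper-quartile or total count scaling, the edgeR 4 form, a filter at 10 counts in each library, leaving mitochondrial genes out and subtraction of 1% of human counts gave 22 to 30. Leaving out 1 library gave 8 to 36 calls, 1 to 8 higher and 7 to 28 lower, with the fewest without replicate 3 of MS-5 alone. For these changes of count the cause was not tested.

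Hmox1, Prl2c2, Prl2c3 and Ptgs2 were called in all 18 settings that kept the fold minimum. Over 165 genes with values, 32 leave-one-out values of 18 genes and 4 other values of 3 genes changed sign, none of them of a gene that passed, and the cause was not tested. The log2 fold change with 1 library left out ranged for Atf3 -0.212 to 0.0439, Cebpa -0.0847 to 0.0646, Col1a1 -0.0736 to 0.0803, Ctgf -0.097 to 0.218, Fabp4 -0.0589 to 0.0472, Fn1 -0.0339 to 0.119, Itgb1 -0.0453 to 0.0205, Keap1 -0.105 to 0.0199, Nfe2l2 -0.00448 to 0.0864, Nfkbia -0.0926 to 0.0301, Pdgfrb -0.0331 to 0.0101, Serpinb9 -0.0848 to 0.0341, Slc40a1 -0.302 to 0.0947, Slc7a11 -0.0585 to 0.222, Sparc -0.0486 to 0.00524, Trib3 -0.223 to 0.157, Vcam1 -0.0573 to 0.00897 and Vim -0.0698 to 0.00372. It became 0.00355 for Itgb1 and 0.000957 for Pdgfrb without the filter, and 0.00297 for Pdgfrb and 0.00604 for Vcam1 with thinned libraries. Depth limited genes under about 3 counts per library, such as Il6, for which no difference was detectable.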
